A study of Mus musculus with 6 samples.

Results

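Enzymes that add or remove acetyl and methyl groups on histones were measured in LPS-stimulated RAW 264.7 cells treated with 15-HETE. They were chosen by name, as the genes whose platform symbol starts with Kat (lysine acetyltransferases), Hdac (histone deacetylases), Kdm (lysine demethylases), Kmt (lysine methyltransferases) or Setd (SET domain proteins, most of them lysine methyltransferases). The rule found 34 of 13840 genes that have a probe of their own, namely 6 Kat, 10 Hdac, 11 Kdm, 2 Kmt and 5 Setd genes. Only Kdm2b had a further probe, so 35 of 33012 probes belong to these enzymes, and each gene is given at its brightest probe. RAW 264.7 is a mouse macrophage-like cell line, LPS is bacterial endotoxin, and 15-HETE is an oxidised derivative of the fatty acid arachidonic acid. The LPS group holds 3 biological replicates stimulated with 1 μg/mL LPS, and the 15-HETE + LPS group holds 3 replicates that received 40 μM 15(S)-HETE immediately before the same LPS. LPS was thus present in every sample, all cells were harvested at 24 h, each replicate pooled 6 wells, and the labels name no vehicle for the LPS group. Values are intensities of a chemiluminescent array in arbitrary units, quantile normalized by the authors, and a positive log2 fold change means higher after 15-HETE.

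Acetyl groups on histone tails loosen the contact of histones with DNA and are read by bromodomain proteins, and they are placed by acetyltransferases and taken off by deacetylases. Methyl groups act through the proteins that bind them, and the same mark can go with active or silent genes depending on the lysine that carries it. In macrophages such enzymes are known for setting how strongly inflammatory genes answer to LPS, with deacetylases of the corepressor complexes among the brakes.

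The promoters of 4 of the enzymes are shown because their transcripts give the range of the response, from the largest rise (Kat7) to the negative log2 fold changes of lowest p that have an entry (Setd1a, Kmt5c and Hdac6). Each is the 250 bases before the transcription start, 5′ to 3′ on the gene's strand, from RefSeq on GRCm38.p6, with CpG dinucleotides in capitals. These are the sites that the CXXC domains of Kdm2a and Kdm2b, and the Cxxc1 subunit of the Setd1a complex, bind when unmethylated. The windows lie at chr11:95310247-95310496 (minus strand) for Kat7, chr7:127777139-127777388 (plus strand) for Setd1a, chr7:4739877-4740126 (plus strand) for Kmt5c and chrX:7947890-7948139 (minus strand) for Hdac6.
Kat7: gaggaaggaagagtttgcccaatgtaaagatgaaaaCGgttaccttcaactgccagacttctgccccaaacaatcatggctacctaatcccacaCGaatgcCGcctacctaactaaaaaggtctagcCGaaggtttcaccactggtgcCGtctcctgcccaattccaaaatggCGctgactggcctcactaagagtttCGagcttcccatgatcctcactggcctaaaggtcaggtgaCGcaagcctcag
Setd1a: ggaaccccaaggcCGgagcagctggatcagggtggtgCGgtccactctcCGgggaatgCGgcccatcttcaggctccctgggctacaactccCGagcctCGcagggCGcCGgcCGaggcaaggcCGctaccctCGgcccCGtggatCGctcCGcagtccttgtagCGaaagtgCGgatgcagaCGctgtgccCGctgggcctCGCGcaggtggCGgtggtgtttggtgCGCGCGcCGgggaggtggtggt
Kmt5c: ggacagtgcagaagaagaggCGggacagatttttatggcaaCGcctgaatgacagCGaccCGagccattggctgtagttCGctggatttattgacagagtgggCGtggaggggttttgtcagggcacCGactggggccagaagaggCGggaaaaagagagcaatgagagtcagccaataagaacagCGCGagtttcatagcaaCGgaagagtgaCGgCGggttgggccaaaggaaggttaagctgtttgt
Hdac6: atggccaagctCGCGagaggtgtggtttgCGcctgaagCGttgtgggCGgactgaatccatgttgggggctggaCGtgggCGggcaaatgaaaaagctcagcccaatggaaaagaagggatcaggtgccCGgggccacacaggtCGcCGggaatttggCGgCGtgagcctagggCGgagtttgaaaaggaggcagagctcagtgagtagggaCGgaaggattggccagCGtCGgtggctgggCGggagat
The Kat7 window held 8 CpG dinucleotides, against 25 for Setd1a, 13 for Kmt5c and 17 for Hdac6. The median was 17 over the 41 windows of 29 enzymes and 6 over all 32851 windows of this length. The GC box GGGCGG, searched on both strands, occurred 4 times before Hdac6 and was not found in the other 3 windows. It was in 51.2% of the enzymes' windows and in 32.7% of all windows. The E-box CACGTG, searched the same way, was in 4.88% of the enzymes' windows and 6.02% of all windows, and the AP-1 site TGACTCA in 7.32% and 4.46%. Kdm2a, Kdm4b, Hdac1, Hdac3 and Hdac10 had no entry.

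Macrophage markers had a probe of their own for 8 of 12 genes, and all 8 lay above the median intensity of the array, at a median percentile of 97.7. Their summed intensity, made up mostly of Lyz2, was 2915414 to 3852873 in LPS samples and 4167483 to 4327914 in 15-HETE + LPS samples. Of the markers of other cells, 6 of 6 fibroblast genes summed to 22049 to 27746 in LPS samples and 13121 to 15431 after 15-HETE. The 5 epithelial genes summed to 4943 to 6011 and 2531 to 4641. The 6 granulocyte genes summed to 62827 to 187235 and 144088 to 220118, and the 3 neuron genes to 59997 to 75435 and 50964 to 55170. Most of the granulocyte sum came from S100a8 (log2 fold change 0.47). S100a9 (0.49) was also above 0, while Elane (-1.08), Mpo (-1.38), Ngp (-0.67) and Camp (-0.51) were below it. Most of the neuron sum came from Tubb3 (-0.14), with Snap25 at 0.81 and Syt1 at -1.42. The 3 T cell genes summed to 2025 to 2140 and 1711 to 2525, and the 4 B cell genes to 2421 to 2884 and 1969 to 5437. Of the LPS response list, 6 of 9 symbols were measured, and the unmeasured symbols Irg1 and Acod1 name the same gene. The measured LPS response genes did not go one way, although their sum, made up mostly of Ccl5 and Saa3, was 3052186 to 3615975 and 4378874 to 4531783. Il6 (log2 fold change -1.69), Nos2 (-0.96) and Tnf (-0.77) had all treated samples below all LPS samples, and Il1b (1.29), Saa3 (0.79) and Ccl5 (0.24) had them above. No gene of these lists passed limma. At an unadjusted p under 0.05, 4 of the 41 marker genes were higher and 8 lower, where 8.62% and 11.0% of all probes were. Among these markers were 1 higher and 3 lower LPS response genes, 1 higher macrophage gene, 1 lower fibroblast gene and 2 lower granulocyte genes. The epithelial and neuron lists each had 1 higher and 1 lower gene. The part of these markers in the results was not tested. The arrays that were run together are not named, so array set and treatment cannot be told apart.

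The LPS replicates did not lie equally close to each other over these enzymes. Between LPS replicate 1 and the other LPS replicates the median absolute difference over the 34 genes was 0.308 and 0.355 on the log2 scale, against 0.129 between LPS replicates 2 and 3 and 0.141 to 0.158 among the 15-HETE + LPS replicates. LPS replicate 1 had the highest value of its group for 26 of 34 enzymes (76.5%), against 40.7% of all probes and 54.7% of probes with 1 symbol above the median intensity. All 6 Kat genes, 8 of 10 Hdac genes and both Kmt genes were among the 26. Values without this sample are given where they differ clearly.

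**Figure D1:**
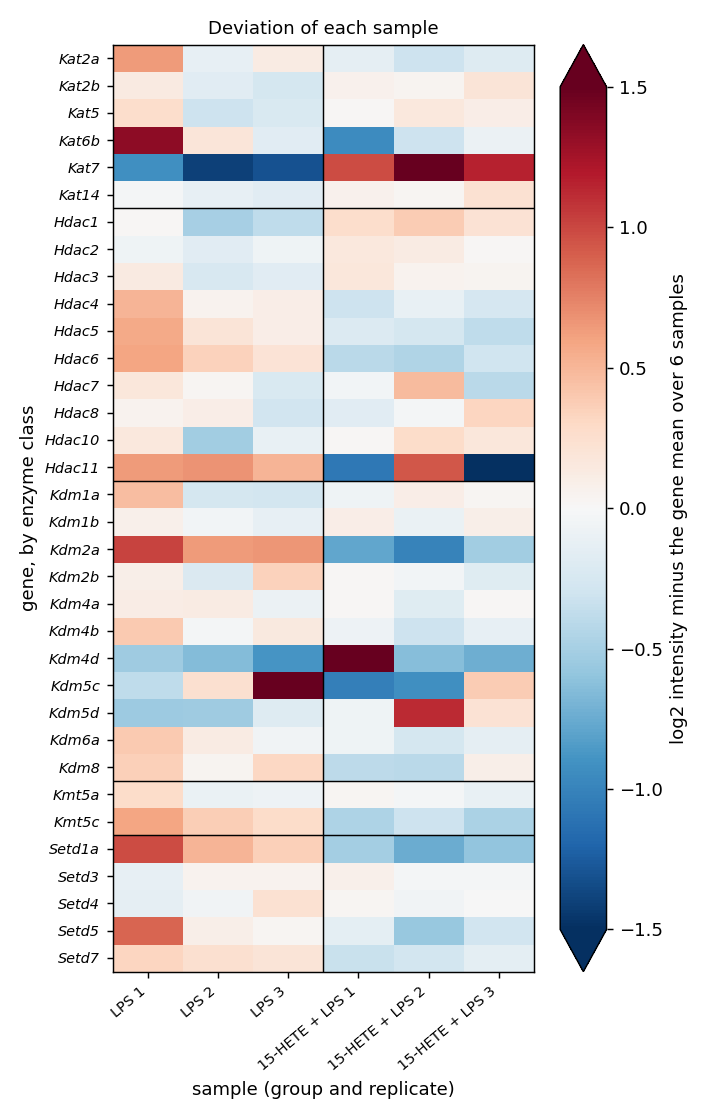
Log2 intensity of each of the 34 enzymes (rows, by class) in each of the 6 samples (columns) as a difference from the mean of that gene over all samples, with darker colours ending at 1.5 in either direction. The Kat7 row is low in all 3 LPS samples and high in all 3 treated samples, the Kdm2a and Setd1a rows run the other way, and the column of LPS replicate 1 is the highest of its group for 26 of 34 genes.

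Kat7 rose and Kdm2a fell after 15-HETE, and these were the enzymes that passed limma at an adjusted p under 0.05. They are 2 of 34 (5.88%), where 0.951% of all probes passed (0.509% higher and 0.442% lower). Of probes with 1 symbol above the median intensity 1.71% passed. At an unadjusted p under 0.05 stood 3 enzymes that were higher and 6 that were lower. Of all probes 8.62% were higher and 11.0% lower (19.6% together), and of those with 1 symbol above the median intensity 14.1% and 13.1%. Of the 34 genes 15 had a positive and 19 a negative log2 fold change, with a median of -0.08, where the median over all probes was 0.01. A further fit let the prior variance in limma depend on the brightness of the probe, and is called the intensity trend here. It passed 2 enzymes as higher and 5 as lower, a share of 20.6% against 8.84% of all probes (3.87% higher and 4.96% lower) and 17.5% of probes with 1 symbol above the median intensity, where 29 of the 34 enzymes also lie. The ranges of both groups were apart for 5 enzymes that were higher and 11 that were lower. The first is 14.7% of the enzymes against 13.7% of all probes, and the second is 32.4% against 16.3%. Among probes with 1 symbol above the median intensity these shares were 24.3% higher and 23.6% lower, and among the 29 enzymes there they were 13.8% and 37.9%. The list was not tested as a whole, and in these bulk samples fewer cells and less RNA per cell cannot be told apart. Kat7 and Kdm2a passed neither the methods' t-test adjusted over all probes nor limma with a replicate block, fits that passed 0 probes of the array.

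**Figure D2:**
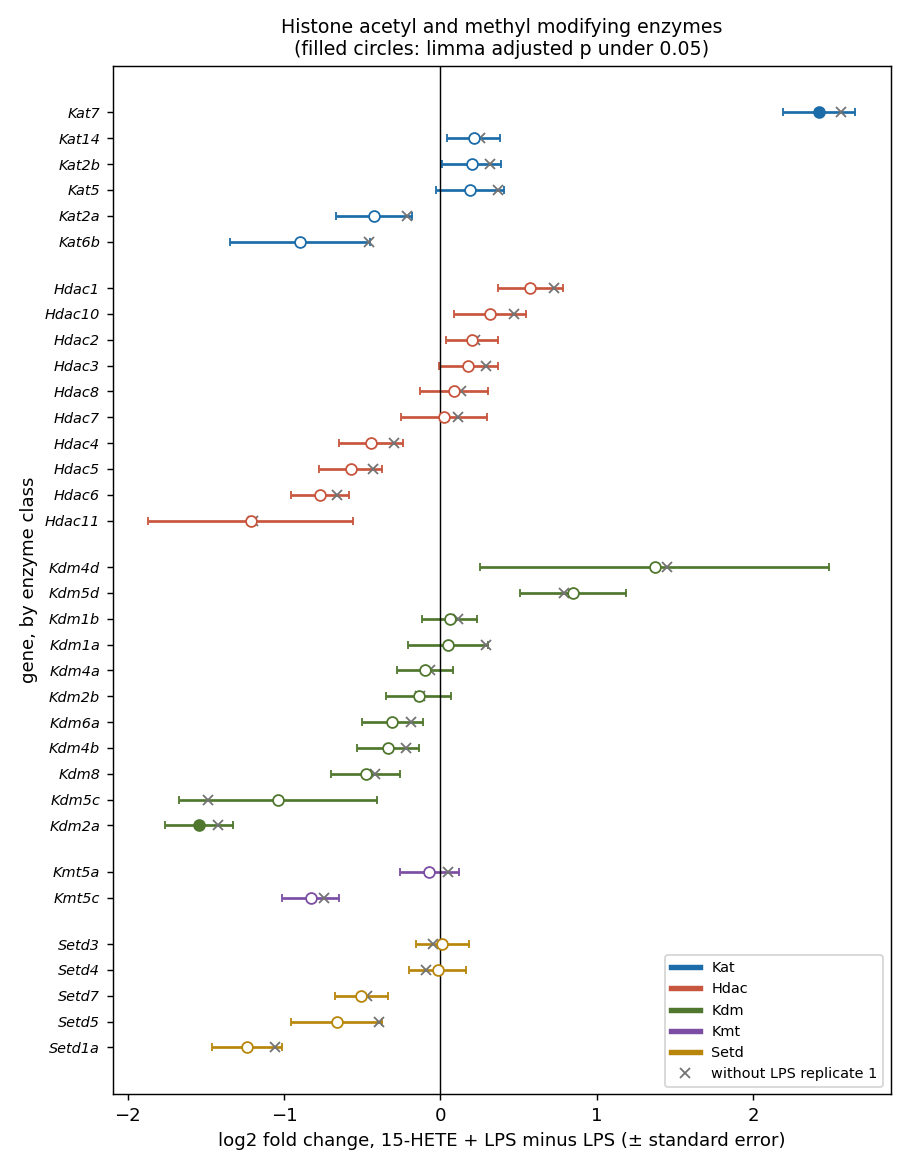
Log2 fold change (15-HETE + LPS minus LPS, with the standard error from limma as bars) of the 34 enzymes by class, filled where limma passed, with grey crosses for the value without LPS replicate 1. Kat7 (2.42) and Kdm2a (-1.54) are filled, most other genes lie within 1 of 0, and leaving out LPS replicate 1 changes the sign of Kmt5a and Setd3, both close to 0.

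Among the acetyltransferases Kat7 stood at the top of all 34 enzymes. Kat7, also called HBO1, is a MYST family enzyme that acetylates histones H3 and H4 at promoters and replication origins. Its intensity was 1876, 1351 and 1439 in LPS replicates 1 to 3 and 7042, 10063 and 7899 in 15-HETE + LPS replicates 1 to 3. Every treated sample lay above every LPS sample, and the lowest treated value was far above the highest LPS value. The mean was 1555 ± 281 (SD, n = 3) in LPS samples and 8335 ± 1557 (SD, n = 3) in treated samples, a 5.35-fold rise between geometric means (log2 fold change 2.42 ± 0.23 (SE), limma adjusted p = 0.0327). Without any 1 sample the log2 fold change stayed between 2.28 and 2.56. The study had picked this gene from the same arrays under an older symbol, so its rise is not independent evidence.

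The other 5 Kat genes did not pass. Kat14, a subunit of the ATAC acetyltransferase complex, was at 40591, 38066 and 36989 in LPS samples and at 43504, 42315 and 48473 after 15-HETE, and the groups did not overlap although the log2 fold change was 0.21 (limma adjusted p = 0.528). Kat2b (PCAF) had a log2 fold change of 0.20 and Kat5 (Tip60), the catalytic subunit of NuA4, of 0.19, and both groups overlapped for each. Kat2b had 0.32 without LPS replicate 1. Kat2a (GCN5), the acetyltransferase of SAGA, was at 16507, 9723 and 11579 in LPS samples and at 9671, 8589 and 9281 after 15-HETE. All treated values lay below all LPS values, by a narrow margin to LPS replicate 2, and LPS replicate 1 was 1.55 times the mean of the other LPS samples. Its log2 fold change was -0.42 (adjusted p = 0.394) and -0.21 without LPS replicate 1. Kat6b (MORF), below the median intensity of the array, had -0.90 ± 0.45 (SE, adjusted p = 0.329), with LPS replicate 1 at 1487 and the other 5 samples at 307 to 665. Without that sample the value was -0.45, and Kat5 had 0.37 and an adjusted p of 0.00991 with the intensity trend. The class median was 0.20 with all samples, and 4 of 6 genes were above 0.

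Partners of Kat7 in its complex were measured too. Jade2, a scaffold that directs it to histone H4, was at 1028, 985 and 432 in LPS samples and at 284, 306 and 222 after 15-HETE, a log2 difference of -1.50 ± 0.38 (SE, limma adjusted p = 0.112). Jade1, a related scaffold, had -0.53 (adjusted p = 0.249), and Brpf1, the scaffold that directs it to histone H3, had -0.47 (adjusted p = 0.295). The treated samples were below the LPS samples for all 3 scaffolds, while Jade3 (0.45) overlapped. Such a separation held for 16.3% of all probes and 23.6% of those with 1 symbol above the median intensity. Jade2 and Jade3 lay below the median intensity of the array, and these genes were chosen after their values were seen. The reader subunits Ing4 and Ing5 had 0.18 and 0.51, and only for Ing5 were all treated samples above all LPS samples. Brpf1 had -0.29 and Ing5 0.28 without LPS replicate 1. None of these subunits passed limma.

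Histone deacetylases had log2 fold changes on both sides of 0, and none of the 10 passed limma. An unadjusted p under 0.05 was found for 1 higher and 2 lower, where 8.62% of all probes were higher and 11.0% lower. Among probes with 1 symbol above the median intensity these shares were 14.1% and 13.1%. The 4 class I enzymes, mostly the nuclear catalytic subunits of corepressor complexes, all had positive log2 fold changes, from 0.09 to 0.58. The 5 class II enzymes ran from -0.77 to 0.32, with 3 of 5 below 0. This division is the textbook one, it was drawn after the values were seen, and the difference between the classes was not tested. Hdac1 was at 18527, 13002 and 14107 in LPS samples and at 22024, 23982 and 21285 after 15-HETE. All treated values were above all LPS values, with LPS replicate 1 nearest to them. The log2 fold change was 0.58 ± 0.21 (SE, limma adjusted p = 0.202, with the intensity trend 0.0452), and 0.73 without LPS replicate 1. Hdac2, the close relative that shares the Sin3, NuRD and CoREST complexes with Hdac1, was at 81277 to 87482 in LPS samples and 92674 to 102523 in treated samples (log2 fold change 0.20, adjusted p = 0.541). Hdac3, the enzyme of the NCoR and SMRT corepressors, had 0.18 and Hdac8 0.09, and the groups overlapped for both. These were 0.29 and 0.13 without LPS replicate 1.

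The negative values of lowest p among deacetylases were in class II. Hdac6, a largely cytoplasmic enzyme that deacetylates tubulin, was at 12510, 10551 and 9576 in LPS samples and at 6282, 6059 and 6713 after 15-HETE. The groups were clearly apart, with a log2 fold change of -0.77 ± 0.19 (SE, limma adjusted p = 0.106, with the intensity trend 0.0136). Hdac5, a class IIa enzyme that shuttles between nucleus and cytoplasm and restrains MEF2 factors, was at 54959, 42191 and 39565 and then at 31996, 30794 and 28306. Its treated samples were all below its LPS samples, and the log2 fold change was -0.57 ± 0.20 (SE, adjusted p = 0.197, with the intensity trend 0.0375). Hdac4, of the same class, had -0.45 (adjusted p = 0.293), with 12395 to 17079 in LPS samples and 9668 to 11074 after 15-HETE. Without LPS replicate 1 these 3 values were -0.66, -0.43 and -0.30. Hdac10, a polyamine deacetylase, had the brightest probe of all members, at 1328678 to 2116439 in LPS samples and 1929292 to 2300492 in treated samples, and a log2 fold change of 0.32 that did not pass (0.47 without LPS replicate 1). Hdac7 (0.02) was below the median intensity of the array. Hdac11 had -1.21 with a standard error of 0.65, from treated values of 316, 1273 and 208 against 950 to 1060 in LPS samples, so 1 treated replicate was the highest of all 6 samples.

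**Figure D3:**
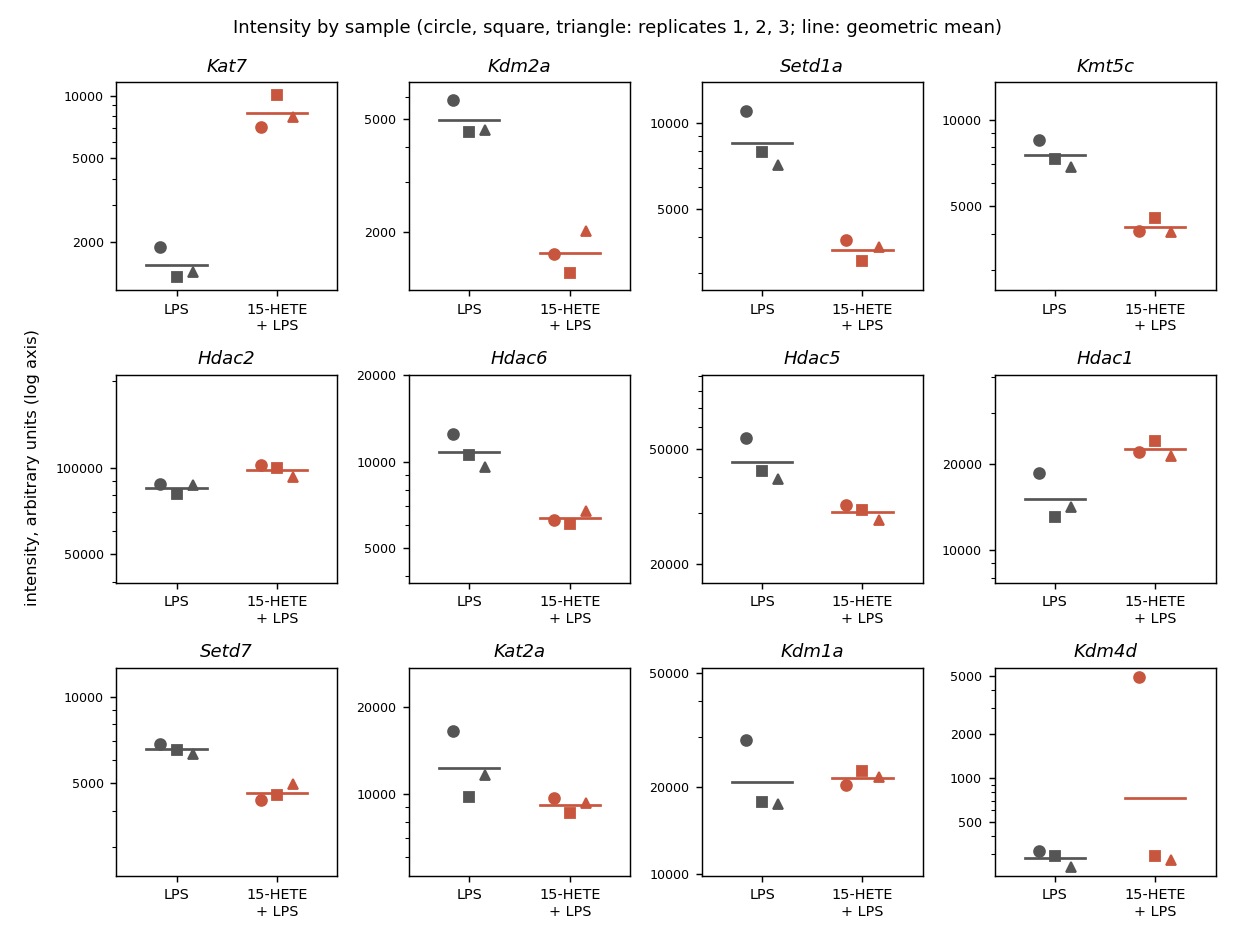
Intensity (arbitrary units, log axis) of 12 enzymes in the 3 LPS samples (grey) and the 3 15-HETE + LPS samples (orange), with the geometric mean of each group as a line. The groups are far apart for Kat7 and Kdm2a and closer but apart for Setd1a, Kmt5c, Hdac6, Hdac5 and Setd7, LPS replicate 1 (circle) is high for Kat2a and Kdm1a, and 1 treated sample makes up the difference of Kdm4d.

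Among the lysine demethylases Kdm2a fell. Kdm2a, a JmjC enzyme that binds unmethylated CpG sites and demethylates histone H3, was at 5863, 4521 and 4586 in LPS samples and at 1686, 1445 and 2016 after 15-HETE. Every treated value was below every LPS value, and the highest treated sample was well below the lowest LPS sample. The mean went from 4990 ± 757 (SD, n = 3) to 1716 ± 287 (SD, n = 3), and LPS over treated was 2.91-fold between geometric means (log2 fold change -1.54 ± 0.22 (SE), limma adjusted p = 0.0486). Leave-one-out values lay between -1.67 and -1.42, and Kdm2a did not pass with the robust prior or with the mean of all probes of a gene. This gene too had been picked by the study from the same arrays. Its close relative Kdm2b gave different values at its probes. The brighter probe had 2747, 2225 and 3282 in LPS samples and 2612, 2515 and 2284 after 15-HETE, and its groups overlapped (log2 fold change -0.14, adjusted p = 0.752). The other probe had 4002, 2984 and 3220 and then 2051, 1818 and 1665, with the groups apart and a log2 fold change of -0.88 ± 0.20 (SE, adjusted p = 0.0966, with the intensity trend 0.0392).

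The remaining demethylases did not pass, and 6 of these 10 were below 0. Kdm6a, which removes the Polycomb mark from histone H3, was at 27126 to 36952 in LPS samples and 23421 to 27050 after 15-HETE, a log2 fold change of -0.31. Kdm4b, which acts on a heterochromatin mark, had -0.33, and for both genes the treated samples lay just below the LPS samples. Kdm6a had -0.19 and Kdm4b -0.22 without LPS replicate 1. Kdm8 had -0.48, Kdm4a -0.10 and Kdm1b, a flavin-dependent demethylase, 0.06, and the groups overlapped for each. Kdm1a (LSD1), the demethylase of the CoREST complex, was at 29210, 17717 and 17508 in LPS samples and 20331, 22732 and 21639 after 15-HETE. The treated samples lay between LPS replicate 1 and the other LPS samples, so the log2 fold change was 0.05 with all samples and 0.29 without LPS replicate 1 (adjusted p = 0.0425 with the intensity trend there). Kdm5c had -1.04, with 653, 1000 and 2764 in LPS samples, and the groups overlapped. Kdm5c had -1.49 without LPS replicate 1. Kdm5d, its Y-linked relative, was dim at 259 to 330 in LPS samples and 360 to 820 after 15-HETE, a log2 fold change of 0.85 (adjusted p = 0.246). Kdm4d had 1.37 with a standard error of 1.11, since 1 treated sample was at 4889 and the other 5 were at 246 to 315. Without that sample the value was -0.00088.

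Methyltransferases of the Kmt and Setd classes lay mostly below 0, and none of the 7 passed limma. At an unadjusted p under 0.05 there were 0 higher and 3 lower, where 8.62% of all probes were higher and 11.0% lower. Among probes with 1 symbol above the median intensity, where all 7 lie, these shares were 14.1% and 13.1%. The Setd1a values were 10988, 7953 and 7133 in LPS samples and 3902, 3309 and 3690 after 15-HETE. Setd1a is a catalytic subunit of the COMPASS complexes that methylate histone H3 at active promoters. The groups were well apart, and the log2 fold change was -1.24 ± 0.23 (SE, limma adjusted p = 0.0667, with the intensity trend 0.00568). Kmt5c, which adds further methyl groups to histone H4 after Kmt5a has placed the first, was at 8493, 7286 and 6843 in LPS samples and at 4101, 4547 and 4043 after 15-HETE. Its groups were also well apart, with a log2 fold change of -0.83 ± 0.18 (SE, adjusted p = 0.0875, with the intensity trend 0.0126). Kmt5a itself was bright, at 166629 to 215319 in LPS samples and 165297 to 181973 in treated samples, and had -0.07 (adjusted p = 0.868).

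The other Setd genes were split. Setd7, which places a single methyl group on histone H3 and on other proteins, was at 6853, 6504 and 6294 in LPS samples and 4347, 4555 and 4959 after 15-HETE. The groups were apart, with a log2 fold change of -0.50 ± 0.17 (SE, limma adjusted p = 0.179, with the intensity trend 0.0697). Setd5 was at 3367, 1942 and 1872 and then at 1661, 1235 and 1503, and had -0.66 (adjusted p = 0.275), or -0.39 without LPS replicate 1. Setd3, which methylates actin rather than histones, had 0.01, and Setd4 had -0.02. The median of the 5 Setd genes was -0.50, and that of the 2 Kmt genes -0.45.

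Related enzymes and complex subunits that the naming rule does not take were read from 9 gene lists, with 135 genes measured. Limma passed 0 of them after adjustment, while 8 were higher (5.93%) and 18 lower (13.3%) at an unadjusted p under 0.05. Of all probes 8.62% and 11.0% were, and of those with 1 symbol above the median intensity 14.1% and 13.1%. The methods' t-test adjusted over all probes passed 0 of the related genes too, and the intensity trend passed 4 as higher and 13 as lower. That is 12.6% of the related genes, against 8.84% of all probes and 17.5% of probes with 1 symbol above the median intensity, where 127 of the 135 lie. The median of all 135 was 0.00116, and -0.03 without LPS replicate 1, where 17 changed sign. LPS replicate 1 was the highest LPS sample for 88 of the 135 (65.2%). The subunits of PRC2, the Polycomb methyltransferase, and of COMPASS had a median of -0.30 with 11 of 15 genes below 0, and 8 had all treated samples below all LPS samples (53.3%, against 16.3% of all probes and 23.6% of those with 1 symbol above the median intensity). LPS replicate 1 was the highest LPS sample for 13 of these 15 genes (86.7%), and its part in the count was not tested. Without it the median was -0.28, and 11 genes were below 0. Mtf2, which guides PRC2 to CpG islands, was at 38066, 33518 and 37349 in LPS samples and 21002, 22135 and 23358 after 15-HETE (log2 fold change -0.71, limma adjusted p = 0.103, with the intensity trend 0.00633). Rbbp5, a core subunit of COMPASS, had -0.83 (adjusted p = 0.183).

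Ezh2, a catalytic subunit of PRC2, was listed with the other lysine methyltransferases. It was at 34619, 36171 and 34297 in LPS samples and 21414, 23683 and 21476 after 15-HETE, with close replicates in both groups and no overlap. Its log2 fold change was -0.66 ± 0.17 (SE, limma adjusted p = 0.111, with the intensity trend 0.00739). Ezh1, the alternative catalytic subunit, went the other way, with 0.89 ± 0.47 (SE, limma adjusted p = 0.352). Its values were 2041, 662 and 1112 in LPS samples and 2784, 2391 and 1445 after 15-HETE, so the groups overlapped. Without LPS replicate 1 Ezh1 had 1.31. The core subunits Eed and Suz12 had 0.17 and 0.25 and overlapped, with Suz12 at 0.48 without LPS replicate 1. Smyd1 had -0.67 in the same list as Ezh2, whose median was 0.00116 over 15 genes.

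Subunits of the deacetylase complexes had a median of 0.02 over 30 genes. Of the NuRD complex, the remodeller Chd4 was at 80927, 58333 and 61593 in LPS samples and 36412, 35968 and 35476 after 15-HETE, a log2 fold change of -0.88 (limma adjusted p = 0.0921, with the intensity trend 0.00601). Of the 9 NuRD subunits in this list 6 were below 0, where 49.5% of all probes were. All treated samples were below all LPS samples for 5 of them, namely Chd4, Mta1 (-0.51), Mta2 (-0.54), Mta3 (-0.22) and Mbd3 (-0.35). That held for 16.3% of all probes and 23.6% of those with 1 symbol above the median intensity. LPS replicate 1 was the highest LPS sample for each of the 5 except Mbd3. Without it the 5 values were -0.74, -0.43, -0.42, -0.18 and -0.37. Hdac1 (0.58) and Hdac2 (0.20), the deacetylases of NuRD, are not in this list. All treated samples were above all LPS samples for both, a separation found for 13.7% of all probes. It held for 24.3% of probes with 1 symbol above the median intensity. The NuRD subunits were not tested as a set. Gatad2b (-0.09) and Gatad2a (0.01) overlapped. The histone-binding subunits Rbbp4 (0.46) and Rbbp7 (0.44), shared with other complexes, overlapped with values above 0, and had 0.72 and 0.67 without LPS replicate 1. Sin3b, a scaffold of Hdac1 and Hdac2, was at 34723, 40728 and 44298 and then at 62871, 62631 and 56981, a log2 fold change of 0.61 (adjusted p = 0.148, with the intensity trend 0.0172), while Sin3a had -0.21. Without LPS replicate 1 Sin3b had 0.52 and Sin3a -0.11. That sample was the highest LPS sample for 16 of the 30 genes (53.3%) and the lowest for Sin3b.

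In the remaining lists the genes of lowest p had these values. Tada2a, a SAGA subunit, had -0.77 (limma adjusted p = 0.0976) in a list of 34 acetyltransferase complex subunits with a median of 0.11. Ncoa1 (-0.81) and Ncoa3 (-0.90), nuclear receptor coactivators with acetyltransferase activity, led the 9 other acetyltransferases (median -0.14). Sirt2, a deacetylase of tubulin and histones, had -0.55 among 5 sirtuins (median -0.02), with Sirt3 at 0.19. Carm1, an arginine methyltransferase, had -0.69 and Wdr77, the partner of Prmt5, 0.57 among 7 genes with a median of -0.37. Phf2 (-1.43, adjusted p = 0.0853) and Jmjd8 (0.95, adjusted p = 0.109) were the extremes of 10 other JmjC proteins (median 0.12). Mllt1, a YEATS domain reader, had -0.87 and the BET protein Brd2 -0.46 among 10 acetyl-lysine readers (median -0.10). Without LPS replicate 1 Brd2 had -0.27, Ncoa3 -0.59, Ncoa1 -0.57 and Sirt3 0.09. The medians of the arginine methyltransferases and of the acetyltransferase complex subunits were then -0.14 and 0.0036.

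**Figure D4:**
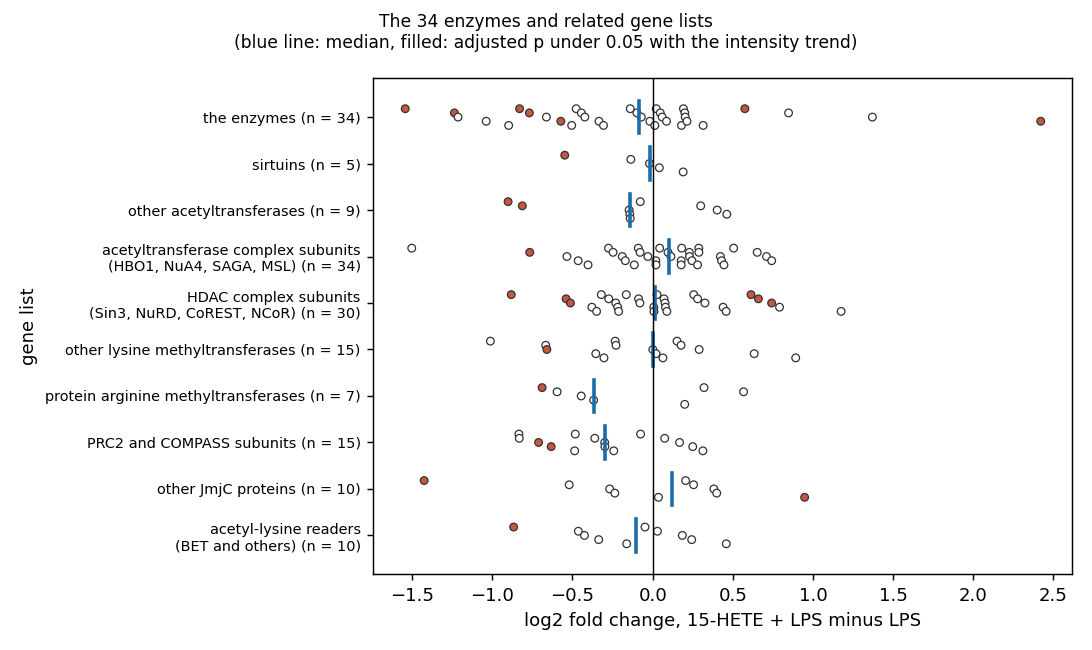
Log2 fold change (15-HETE + LPS minus LPS) of the 34 enzymes and of the 135 genes in 9 related lists, with the median of each list as a blue line and filled points where the adjusted p is under 0.05 with the intensity trend. Medians lie between -0.37 and 0.12, and Kat7 lies to the right of every related gene.

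Without LPS replicate 1 the intensity trend gave 6 enzymes higher (Kat5, Kat7, Hdac1, Hdac3, Hdac10 and Kdm1a) and 6 lower (Hdac5, Hdac6, Kdm2a, Kmt5c, Setd1a and Setd7), a fit in which 15.6% of all probes passed. Above the median intensity, where 29 of the 34 enzymes lie, the share passing without this sample was not computed. With all samples it was 17.5% of probes with 1 symbol there, against 8.84% of all probes. Without LPS replicate 1, 2 of the 34 genes changed sign, Kmt5a and Setd3. Leaving out any other sample gave 1 higher and 3 to 5 lower enzymes with the intensity trend, where 3.7%, 4.24%, 4.5%, 4.62% and 4.73% of all probes passed. Kat7, Kdm2a and Setd1a were among those passing in each of the 6 fits. Limma with a single prior passed 0 probes of the whole array when any sample was left out, so the loss of Kat7 and Kdm2a there says nothing of these genes.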

How the data were processed

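Intensities of 6 arrays were deposited by the authors as a linear table of 33012 probes. The arrays were imaged on a chemiluminescent analyzer, processed with its expression array software and quantile normalized, as the methods of the paper state. All samples share 1 distribution (sorted values differ by at most 0.224%), with a median of 837, and a filter by signal quality that the methods describe needs columns not analysed here. Background correction and a genome build are not given in the sources used here. The number of arrays limits the precision. Intensities were turned to log2 and compared by two-sided moderated tests (limma 3.58.1, R 4.3.3) on all probes, and p was adjusted by Benjamini-Hochberg over 33012 probes and called under 0.05. The robust fit used statmod 1.5.0. The scripts were tested on simulated data. Probes were named by the platform annotation (1 symbol for 14411 probes, several for 247, none for 18354), and all 34 gene ids of the enzymes were found in the RefSeq table with the same symbol. Named were the enzymes that passed, the 3 of lowest p in each direction and class, Kat7 and Kdm2a, the members whose probes disagree in sign (none did) and the 2 of lowest p in each related list. Other genes named, such as the partners of Kat7, were chosen after their values were seen. The members and lists were chosen with earlier results of these data known. Alternatives changed the test, prior, threshold, offset, normalization, dim-probe filter, probe choice and samples.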

Additional observations from a re-analysis of the deposited data

How the results depend on the processing

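The directions of Kat7 and Kdm2a were the same under every alternative run, and their calls were not. Enzymes passing were 1 higher and 1 lower in the main setting. They were 2 and 5 with the intensity trend, 1 and 2 with an offset of 100, 1 and 5 when tested over the probes above the median intensity, 1 and 0 with the robust prior, and 1 and 0 with the mean of all probes of a gene. They were 0 and 0 with the methods' t-test adjusted over all probes and with limma at the methods' threshold (a minimum fold in most samples and a stricter adjusted p). The paper's methods describe t-tests on the probes that met the fold criterion, and a setting adjusted only over those probes was added after seeing the data. At the methods' threshold it passed 1 and 0 enzymes, and 50 probes higher and 38 lower. The enzyme was Kat7, and Kdm2a, which the paper lists, did not pass there. Both Kat7 and Kdm2a passed with cyclic loess and with centring on the median.

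All probes passing were 168 higher and 146 lower in the main setting, 1279 and 1638 with the intensity trend, 345 and 358 with the offset, 1207 and 1589 above the median intensity, 100 and 62 with the robust prior, and 0 and 0 with the t-test and at the methods' threshold. The setting above the median intensity tested 16506 probes, with 29 of the 34 enzymes among them, and the others in this list tested 33012 probes. Related genes passing were 0 and 0 in the main setting, 4 and 13 with the intensity trend and 3 and 8 above the median intensity.

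The same replicate numbers occur in both groups, but deviations of same-numbered samples correlated at -0.024 to 0.0237, so the numbers were not taken to pair the samples. With the replicate block 0 probes and 0 enzymes passed. With any 1 sample left out limma passed 0 probes higher, 0 lower, and 0 enzymes in either direction. With the intensity trend, added after seeing the data, 1 to 6 enzymes were then higher and 3 to 6 lower. The highest counts were those without LPS replicate 1.

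The Kdm median of -0.14 became -0.31 above the median intensity, with the mean of all probes and with the dimmest probe of a gene, since Kdm2b then changes or dim genes drop out, and it ran from -0.28 to -0.13 with 1 sample left out. The Setd median of -0.50 ran from -0.56 to -0.39. Without 15-HETE + LPS replicate 1 Kdm4d had -0.00088 and Setd3 -0.023, and without LPS replicate 1 Kmt5a had 0.048 and Setd3 -0.046, in limma with and without the intensity trend. With 1 sample left out Kdm4d ran from -0.00088 to 2.08, Setd3 from -0.046 to 0.046 and Kmt5a from -0.14 to 0.048. Apart from those of the Kdm median, the cause was not tested. Probes with several symbols added 0 enzymes. For genes near the lower end of intensities, such as Kdm4d, Kdm5d, Hdac7, Hdac11 and Kat6b, signal over background limits what a difference can show.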
